A study of Homo sapiens with 12 samples.

Results

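The ETS family of transcription factors was followed through 10 of its genes, EHF, ELF3, ELF1, ELF4, ETS1, ETS2, ETV4, ETV5, ERF and ELK3, taken by symbol from a table of 26485 genes. All 10 were in the table and all 10 passed the filter on low counts that left 14498 genes for testing. The set was chosen by the measured prexasertib response of EHF, whose level had been seen to move in opposite directions in the cell lines, so that response is given as a description with no test. The RNA came from 12 libraries of PEO1 and COV362, established cell lines derived from high-grade serous carcinoma of the human ovary, which the labels call parental. The groups were PEO1 with 20 nM prexasertib, PEO1 with DMSO vehicle, COV362 with 20 nM prexasertib and COV362 with DMSO vehicle, with 3 replicates (A, B and C) in each. Prexasertib inhibits the checkpoint kinases CHK1 and CHK2, and the duration of treatment is not given in the sources used here. Nothing in the labels says that the replicates were separate cultures, so every p-value measures the spread between these samples, which may be technical.

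ETS factors share a winged helix-turn-helix DNA-binding domain that reads a GGAA core, and most of them act together with partners bound beside them. Several are end points of the RAS and ERK kinase cascade: ERK phosphorylation activates ETS1, ETS2 and the ETV4 and ETV5 pair and relieves repression by ERF and ELK3. EHF and ELF3 belong to the epithelium-specific branch and are known for differentiation genes of lining and glandular epithelia, including that of the female reproductive tract.

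EHF and ELF3 are the members with the widest span between the cell lines, and the sequence just upstream of an annotated start of each is shown to place them. Both come from RefSeq on GRCh38.p14, read 5′ to 3′ on the plus strand, and capitals mark each GGAA core or its complement TTCC. The EHF stretch is chr11:34624007-34624256 and lies inside the EHF gene of the count table (hg38, chr11:34621041-34663287, plus strand), upstream of a RefSeq start. The ELF3 stretch is chr1:202010337-202010561 and ends where the ELF3 gene of the count table begins (hg38, chr1:202010562-202017187, plus strand).
EHF: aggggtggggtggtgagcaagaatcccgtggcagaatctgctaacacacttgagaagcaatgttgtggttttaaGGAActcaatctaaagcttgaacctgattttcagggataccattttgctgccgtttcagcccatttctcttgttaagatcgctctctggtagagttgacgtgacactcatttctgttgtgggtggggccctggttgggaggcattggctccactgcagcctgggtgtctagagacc
ELF3: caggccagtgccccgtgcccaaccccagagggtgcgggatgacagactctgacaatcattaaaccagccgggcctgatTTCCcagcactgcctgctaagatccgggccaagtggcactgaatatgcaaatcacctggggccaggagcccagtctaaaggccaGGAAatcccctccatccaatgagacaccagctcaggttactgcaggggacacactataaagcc
The EHF stretch held 1 GGAA core on either strand and the full 250-base ELF3 window held 2. GGAA occurred in 92.7% of 35114 RefSeq windows of 250 bases, with a median of 3 per window, and 76.5% of windows held more than this EHF stretch and 55.1% more than ELF3. A second RefSeq window of EHF, chr11:34632316-34632565, held 0 GGAA cores, and 92.7% of windows held more. Neither held the longer ETS site CCGGAAGT (in 3.42% of windows) or the AP-1 site TGANTCA (in 6.57%), each searched on both strands. A match is a description of letters only. Promoter windows were matched for 7 of the 10 members, 16 windows in all. The other members lie, on hg38, at chr13:40931919-41019372 (ELF1, minus strand), chrX:130064920-130110713 (ELF4, minus), chr11:128458761-128587558 (ETS1, minus), chr21:38805307-38824954 (ETS2, plus), chr17:43527843-43546432 (ETV4, minus), chr3:186046317-186109112 (ETV5, minus), chr19:42247561-42255164 (ERF, minus) and chr12:96194382-96269835 (ELK3, plus).

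The lines were first compared under vehicle, a contrast that the choice of EHF did not use. Expression is given as CPM, counts scaled to a common library size with factors from the trimmed mean of M-values (TMM), and errors of group means are standard deviations (SD, n = 3). Differences are log2 fold changes with standard errors (SE) from edgeR's quasi-likelihood test (QL), and p-values are Benjamini-Hochberg (BH) adjusted over all tested genes. A gene was called at an adjusted p under 0.05. Of the 10 ETS genes, 6 were called between PEO1 DMSO and COV362 DMSO, where 57.7% of all tested genes were called. Higher in PEO1 were 5 (ELF3, EHF, ELF1, ETS1 and ETS2) and lower was 1 (ETV5), against 29.1% higher and 28.6% lower among all genes. The median log2 fold change was 0.32 over the 10 genes and -0.01 over all tested genes.

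ELF3, the epithelium-specific factor that also responds to inflammatory cytokines, showed the widest gap of the 10. It stood at 202 CPM (A), 212 CPM (B) and 176 CPM (C) in PEO1 DMSO, against 9.80 CPM (A), 8.38 CPM (B) and 6.06 CPM (C) in COV362 DMSO. The lines were thus far apart in every library. The difference was 4.62 ± 0.23 (SE), or 24.6-fold higher in PEO1 (edgeR QL, adjusted p = 1.649e-09). EHF, its close relative, stood at 48.6 CPM (A), 55.6 CPM (B) and 54.6 CPM (C) in PEO1 DMSO, against 6.78 CPM (A), 11.2 CPM (B) and 7.56 CPM (C) in COV362 DMSO. Again no library of one line reached the range of the other. The difference was 2.61 ± 0.21 (SE), 6.12-fold higher in PEO1 (edgeR QL, adjusted p = 1.445e-07).

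ELF1, a broadly expressed factor first studied in lymphoid cells, averaged 33.3 ± 3.37 CPM in PEO1 DMSO and 16.3 ± 6.97 CPM in COV362 DMSO (SD, n = 3 each). It was 2.01-fold higher in PEO1 (1.01 ± 0.30, SE; edgeR QL, adjusted p = 0.01119). ETS1, the founding member and a target of ERK phosphorylation, averaged 344 ± 30.5 CPM in PEO1 DMSO and 186 ± 16.1 CPM in COV362 DMSO, and was 1.85-fold higher in PEO1 (edgeR QL, adjusted p = 0.0003244). ETS2, its paralog, differed by less, with 113 ± 9.50 CPM in PEO1 DMSO and 92.3 ± 6.77 CPM in COV362 DMSO (log2 fold change 0.30 ± 0.11, SE; edgeR QL, adjusted p = 0.0357). The ETS2 call was lost without COV362 DMSO A (edgeR QL, adjusted p = 0.08067) or B (0.1159) and without PEO1 DMSO A (0.151) or C (0.07175). It was also lost with length correction (0.1414), with no low-count filter (0.09844), on the DMSO groups alone (0.08201) and without the A libraries (0.112). It was kept with RLE scaling, a filter on mean CPM, DESeq2, limma-voom, and the replicate block with or without length correction.

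ETV5, a member of the PEA3 group whose transcription the repressor CIC holds down, was the member lower in PEO1. It averaged 49.6 ± 6.03 CPM in PEO1 DMSO and 79.0 ± 3.01 CPM in COV362 DMSO, a difference of -0.67 ± 0.12 (SE; edgeR QL, adjusted p = 0.0003168). Its PEA3 partner ETV4 averaged 54.7 ± 8.23 CPM in PEO1 DMSO and 77.3 ± 19.4 CPM in COV362 DMSO and did not pass the test (-0.49 ± 0.23, SE; adjusted p = 0.07905). Nor did the broadly expressed ELF4 (-0.25 ± 0.11, SE; adjusted p = 0.06048), the repressor ERF (0.35 ± 0.22, SE; adjusted p = 0.1935) and ELK3, a partner of SRF (0.25 ± 0.11, SE; adjusted p = 0.06767). The groups of libraries did not overlap for 8 of the 10 genes, 6 higher and 2 lower in PEO1. Among all tested genes that share was 63.5%, with 32.4% higher and 31.1% lower.

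**Figure D1:**
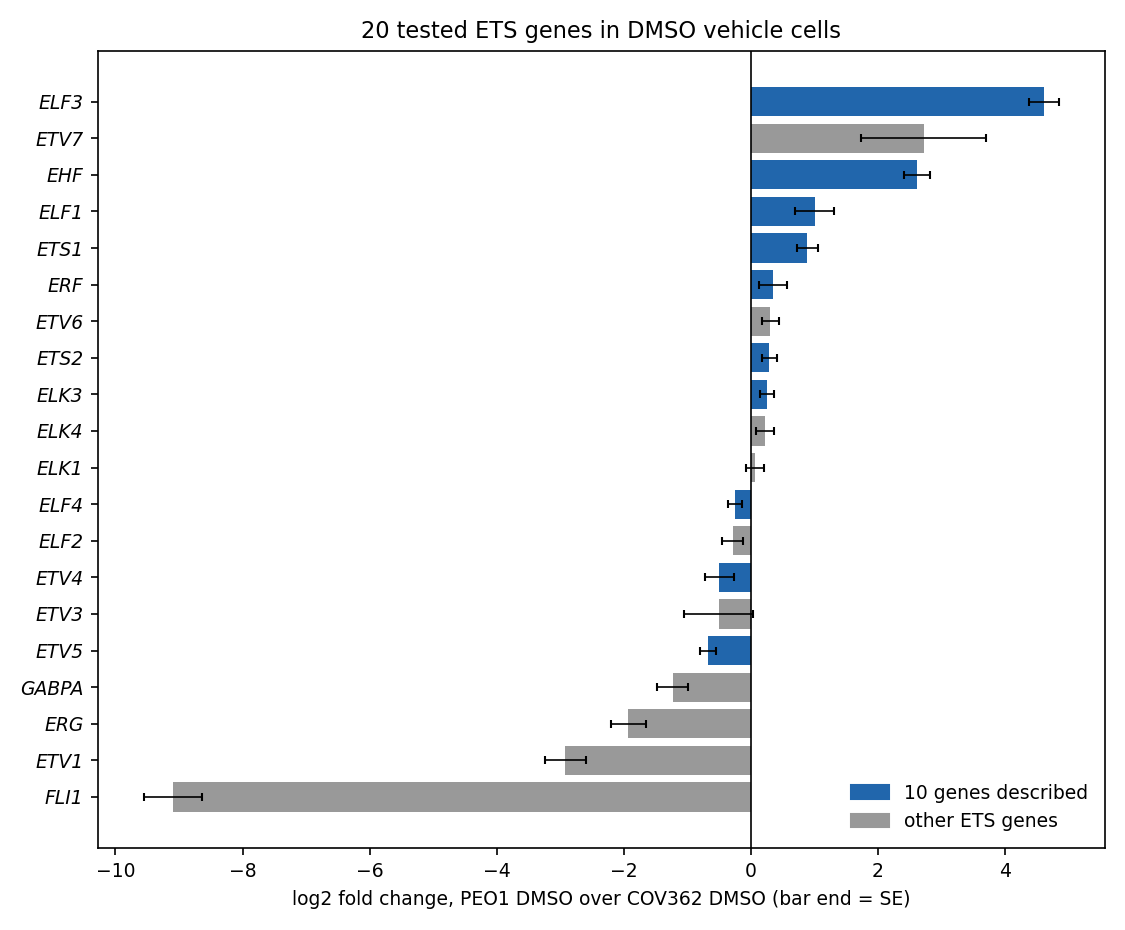
Log2 fold change of PEO1 DMSO over COV362 DMSO for the 20 ETS genes that could be tested, with SE bars; blue bars are the 10 genes described and grey bars the other ETS genes. ELF3 (4.62) and EHF (2.61) reach far to the PEO1 side, and the FLI1 bar at the other end is a fitted value that rests on 4 counts in all PEO1 DMSO libraries.

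To compare genes with each other, CPM was divided by exon length in kilobases. By that measure ETS1 had the highest mean level in every group. In PEO1 DMSO it stood at 62.2 ± 5.51 CPM per kb and ELF3 at 60.6 ± 5.76 CPM per kb (SD, n = 3), levels within their spread. In COV362 DMSO it stood at 33.5 ± 2.91 CPM per kb and ETV4 followed at 28 ± 7.02 CPM per kb, again within the spread. EHF was at 9.39 ± 0.670 CPM per kb in PEO1 DMSO and 1.51 ± 0.422 CPM per kb in COV362 DMSO, the lowest of the 10 in COV362. ELF3, second in PEO1, was next to lowest in COV362 with 2.49 ± 0.581 CPM per kb.

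Summed over all 28 ETS genes of the family, transcript levels were 325 ± 5.39 CPM per kb in PEO1 prexasertib, 309 ± 5.26 CPM per kb in PEO1 DMSO, 235 ± 6.81 CPM per kb in COV362 prexasertib and 233 ± 4.83 CPM per kb in COV362 DMSO (SD, n = 3 each). The make-up of that sum differed more than its size. ELF3 made up 10.99% ± 0.763 of it in PEO1 prexasertib and 19.6% ± 1.75 in PEO1 DMSO, while EHF made up 5.84% ± 0.749 in PEO1 prexasertib and 3.04% ± 0.177 in PEO1 DMSO. In COV362 the EHF share was 0.251% ± 0.0614 under prexasertib and 0.651% ± 0.196 under DMSO. ETS1 held 24.8% ± 1.38 in PEO1 prexasertib and 20.1% ± 1.52 in PEO1 DMSO. These shares are descriptions and were not tested.

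**Figure D2:**
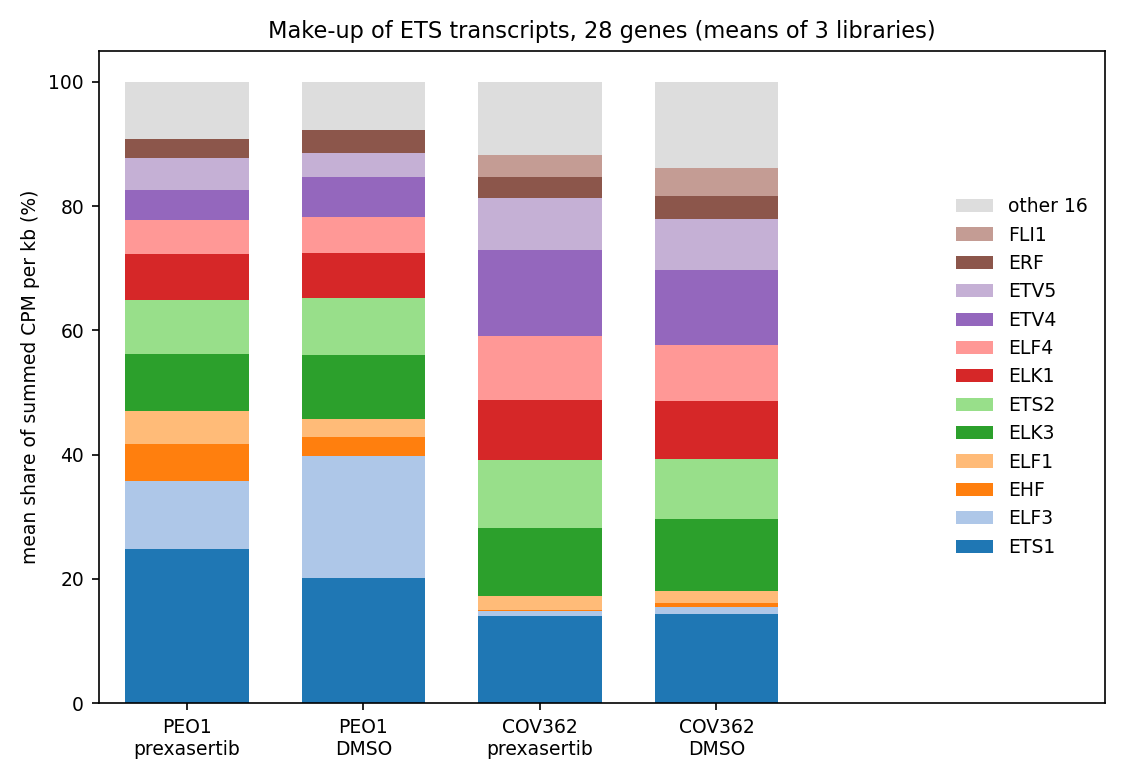
Mean share of ETS genes in the summed CPM per kb of 28 ETS genes, in percent, 1 bar per group (means of 3 libraries). Genes not named in the legend are pooled in 1 grey segment. The ELF3 segment is 10.99% in PEO1 prexasertib, 19.6% in PEO1 DMSO and near 1% in both COV362 groups.

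The drug responses ran as follows for EHF, from which the set was chosen. In PEO1, EHF was at 98.4 CPM (A), 125 CPM (B) and 97.7 CPM (C) with prexasertib, against the DMSO values given above. Every treated library lay above every DMSO library, and the group mean was 107 ± 15.6 CPM with prexasertib and 52.9 ± 3.78 CPM with DMSO (SD, n = 3 each), a log2 fold change of 1.02 ± 0.19 (SE) or 2.02-fold. In COV362 it was at 2.70 CPM (A), 4.26 CPM (B) and 3.002 CPM (C) with prexasertib, each below every DMSO library of that line. The mean was 3.32 ± 0.825 CPM with prexasertib and 8.52 ± 2.38 CPM with DMSO, a log2 fold change of -1.37 ± 0.23 (SE). The total EHF count behind these COV362 means was 153 with prexasertib and 377 with DMSO, so the COV362 level rests on far fewer reads than the PEO1 level. In descending order the 4 groups were PEO1 prexasertib, PEO1 DMSO, COV362 DMSO and COV362 prexasertib, with no overlap between neighbours. The PEO1 change minus the COV362 change was 2.38 ± 0.29 (SE).

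**Figure D3:**
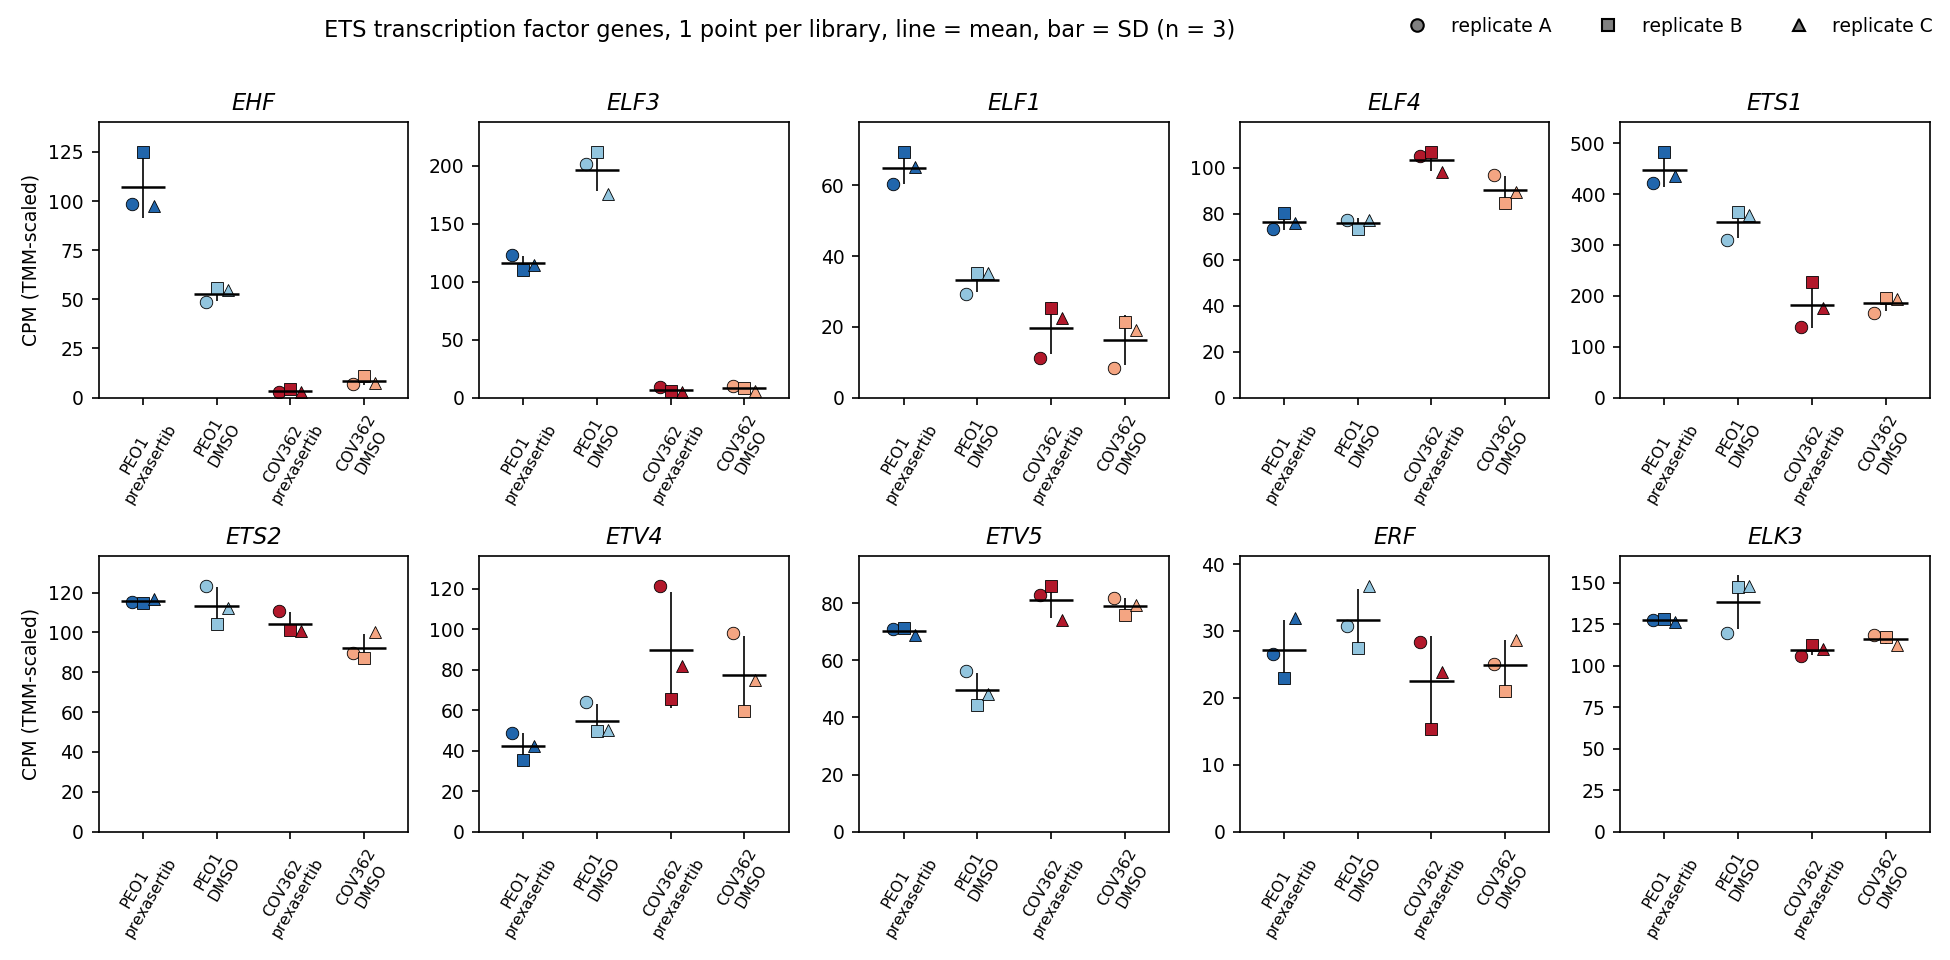
CPM of each ETS gene in every library (symbols for replicates A, B and C), with the group mean as a horizontal line and the SD as a vertical bar (n = 3); each vertical axis starts at 0. EHF is at 97.7 to 125 CPM in PEO1 prexasertib and at 2.70 to 4.26 CPM in COV362 prexasertib, on opposite sides of the DMSO libraries of its line.

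Among the other 9 members, 3 were called in PEO1 under prexasertib, where 29.3% of all tested genes were called. ELF1 and ETV5 were higher (14.7% of all genes) and ELF3 was lower (14.6%). The median log2 fold change over the 10 genes was 0.02, and over all tested genes 0.01. The groups did not overlap for 5 of the 9, ELF1, ETV5, ETS1, ELF3 and ETV4, and the share among all genes was 50.1%, with 25% in each direction. Both counts are thus close to the background of a line in which a large part of the transcriptome moved.

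ELF3 fell under prexasertib in PEO1 to 123 CPM (A), 110.1 CPM (B) and 114 CPM (C), all below the DMSO range of 176 to 212 CPM. The fall of the epithelium-specific ELF3 was 0.59-fold of the DMSO level (-0.76 ± 0.20, SE; edgeR QL, adjusted p = 0.009973), in the line where EHF was higher. It passed under every alternative tried, with log2 fold changes of -0.89 to -0.75. Beside it, the summed level of 14 epithelial markers was 3825 to 4479 CPM in PEO1 prexasertib and 7500 to 8725 CPM in PEO1 DMSO. The part of this in the ELF3 result was not tested, and in bulk RNA fewer cells of a type and less RNA per cell cannot be told apart. The surface marker EPCAM did not share that direction, with 449 CPM in PEO1 prexasertib and 418 CPM in PEO1 DMSO (means).

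ELF1 rose under prexasertib in PEO1 to 60.3 CPM (A), 69.5 CPM (B) and 65.2 CPM (C), against 29.4 CPM (A), 35.3 CPM (B) and 35.1 CPM (C) with DMSO. The groups stood well apart, and the ratio was 1.95 (0.96 ± 0.30, SE; edgeR QL, adjusted p = 0.02533). The call was lost when any 1 of the 6 PEO1 libraries was left out (adjusted p 0.05885 to 0.1083), while the log2 fold change stayed between 0.83 and 0.97. ELF1 was the lowest in the A library of every group. In those libraries short genes held relatively more of the counts (Spearman's rho across genes, between the deviation from the group mean and exon length, -0.413 to -0.348). The part of this length trend in the low ELF1 values was not tested. With that length trend removed the ELF1 change was 0.92 (adjusted p = 0.01121), and without the A libraries it was 0.93 (adjusted p = 0.0003).

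ETV5 rose in PEO1 to 71.1 CPM (A), 71.2 CPM (B) and 68.9 CPM (C) with prexasertib, against 56.3 CPM (A), 44.5 CPM (B) and 48.2 CPM (C) with DMSO. The treated libraries lay within a narrow band above all DMSO libraries, and the ratio was 1.42 (0.50 ± 0.12, SE; edgeR QL, adjusted p = 0.007043). Without PEO1 DMSO B the call was lost (0.38, adjusted p = 0.06725), and likewise without C (adjusted p = 0.0503). Its partner ETV4 lay on the other side, at 48.6 CPM (A), 35.5 CPM (B) and 42.2 CPM (C) with prexasertib and 64.2 CPM (A), 49.6 CPM (B) and 50.4 CPM (C) with DMSO. Those groups did not overlap either, but ETV4 did not pass the test (-0.38 ± 0.23, SE; edgeR QL, adjusted p = 0.2335).

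ETS1 was at 421.5 CPM (A), 483 CPM (B) and 436 CPM (C) in PEO1 prexasertib, against 309 CPM (A), 366 CPM (B) and 358 CPM (C) in PEO1 DMSO. The groups did not overlap, and the difference of 0.38 ± 0.16 (SE) did not pass (edgeR QL, adjusted p = 0.09324). Its paralog ETS2 averaged 116 ± 1.001 CPM with prexasertib and 113 ± 9.50 CPM with DMSO (0.028 ± 0.11, SE; adjusted p = 0.8829, edgeR QL). ELF4 averaged 76.6 ± 3.45 CPM with prexasertib and 75.9 ± 2.25 CPM with DMSO (0.012 ± 0.11, SE; adjusted p = 0.9526, edgeR QL). The sign of these ETS2 and ELF4 values changed with the scaling.

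ERF, which leaves the nucleus once ERK phosphorylates it, was at 26.5 CPM (A), 23.0 CPM (B) and 31.9 CPM (C) in PEO1 prexasertib, against 30.7 CPM (A), 27.5 CPM (B) and 36.7 CPM (C) in PEO1 DMSO. The ERF groups overlapped, and the difference did not pass (-0.22 ± 0.22, SE; edgeR QL, adjusted p = 0.4753). ELK3, a ternary complex factor that represses until it is phosphorylated, was at 128 CPM (A), 128 CPM (B) and 126 CPM (C) in PEO1 prexasertib, against 119.6 CPM (A), 148 CPM (B) and 148 CPM (C) in PEO1 DMSO. The ELK3 groups overlapped through the A library (-0.12 ± 0.11, SE; edgeR QL, adjusted p = 0.4513). In COV362 the ERF values were 28.4 CPM (A), 15.3 CPM (B) and 23.8 CPM (C) with prexasertib. With DMSO they were 25.0 CPM (A), 21.1 CPM (B) and 28.6 CPM (C). These groups overlapped in part, with treated B below every DMSO library (-0.15 ± 0.22 SE, edgeR QL, adjusted p = 0.8639).

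**Figure D4:**
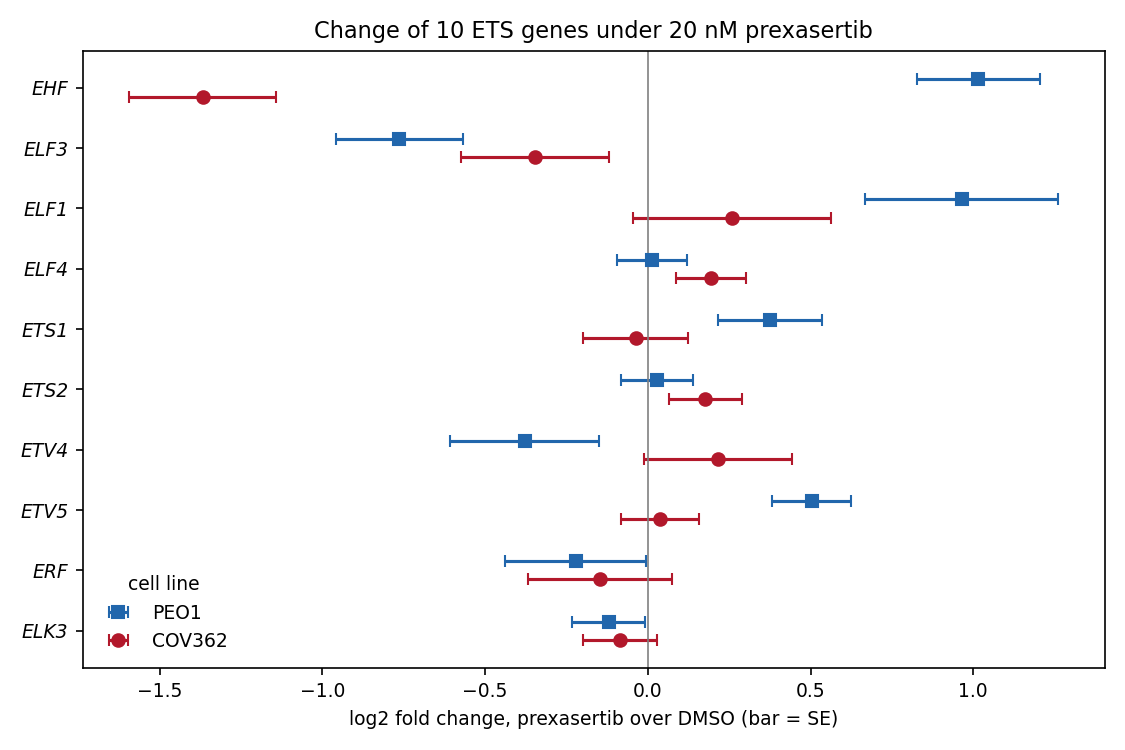
Log2 fold change of prexasertib over DMSO for the 10 ETS genes, with SE bars; squares are PEO1 and circles COV362, and values right of 0 are higher with prexasertib. EHF is at 1.02 in PEO1 and -1.37 in COV362, and the other COV362 values lie between -0.35 and 0.26.

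In COV362, 0 of the other 9 members were called under prexasertib (edgeR QL), and DESeq2 and limma-voom called 0 as well. An unadjusted p under 0.05 was reached by 0 of the 9 (edgeR QL). Among all tested genes other than EHF it was reached by 917 higher and 911 lower of 14497. This line had few calls in all, 0.828% of tested genes, with 0.607% higher and 0.221% lower. The replicate letters were taken to pair the COV362 libraries. With the letter as a block 1977 genes were called in place of 120, still with 0 of the 9. ELF3 averaged 6.36 ± 2.26 CPM with prexasertib and 8.08 ± 1.89 CPM with DMSO (-0.35 ± 0.23, SE; edgeR QL, adjusted p = 0.5886). It passed in 1 alternative, the block with a length correction (-0.41, adjusted p = 0.04968). The other 8 lay between -0.15 (ERF) and 0.26 (ELF1) on the log2 scale. ELF4, ETS2 and ELK3 had groups that did not overlap, 3 of 9, the first 2 of them higher and ELK3 lower. Among all genes that share was 14.5%, with 6.82% higher and 7.63% lower. ELF4 averaged 103 ± 4.65 CPM with prexasertib and 90.4 ± 6.10 CPM with DMSO. ETS2 averaged 104 ± 5.74 CPM with prexasertib and 92.3 ± 6.77 CPM with DMSO. For ELK3 the means were 109 ± 3.18 CPM with prexasertib and 116 ± 3.14 CPM with DMSO. None of the 3 passed the test (edgeR QL, adjusted p 0.496 to 0.8364).

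ETV4 spread widely within COV362, with 121 CPM (A), 65.8 CPM (B) and 81.9 CPM (C) under prexasertib and 97.9 CPM (A), 59.4 CPM (B) and 74.7 CPM (C) under DMSO. The A library was the highest of its group for ETV4 in all 4 groups, and the lowest for ETS1. ETV5 stayed in a closer range, 74.3 to 86.1 CPM with prexasertib and 75.8 to 81.8 CPM with DMSO (0.038 ± 0.12, SE; edgeR QL, adjusted p = 0.9505). ETS1 ranged from 138 to 228 CPM with prexasertib and from 167 to 196 CPM with DMSO (-0.037 ± 0.16, SE; adjusted p = 0.9668, edgeR QL).

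An effect called in PEO1 and not in COV362 is not thereby shown to differ, so the difference between the changes was tested as an interaction. Of the other 9 members 0 were called (edgeR QL), and DESeq2 and limma-voom called 0. An unadjusted p under 0.05 was reached by 1, ETV5 (edgeR QL). Among all tested genes other than EHF it was reached by 1854 higher and 1795 lower of 14497. Among all tested genes 6.1% were called, 3.14% with a higher change in PEO1 and 2.97% with a lower one. The PEO1 change minus the COV362 change was 0.47 ± 0.17 (SE) for ETV5 (adjusted p = 0.1131, edgeR QL). For ELF1 it was 0.71 ± 0.42 (SE; edgeR QL, adjusted p = 0.3162) and for ETS1 0.41 ± 0.23 (SE; edgeR QL, adjusted p = 0.2722). It had the opposite sign for ETV4, at -0.59 ± 0.32 (SE; edgeR QL, adjusted p = 0.2664), and for ELF3, at -0.42 ± 0.30 (SE; edgeR QL, adjusted p = 0.4066). For ELF4, ETS2, ERF and ELK3 it lay between -0.18 and -0.034. The count depended on the replicate block, whose letters were taken to pair the libraries of COV362 but were not shown to pair those of PEO1. With the block 4 of the 9 were called, ELF1 (adjusted p = 0.001699, edgeR QL), ETS1 (0.005142), ETV4 (0.001022) and ETV5 (0.006488), with 4906 genes called in all in place of 885. With block and length correction 3 were called, ELF1, ETV4 and ETV5 (edgeR QL, adjusted p 0.0009463 to 0.01671).

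**Figure D5:**
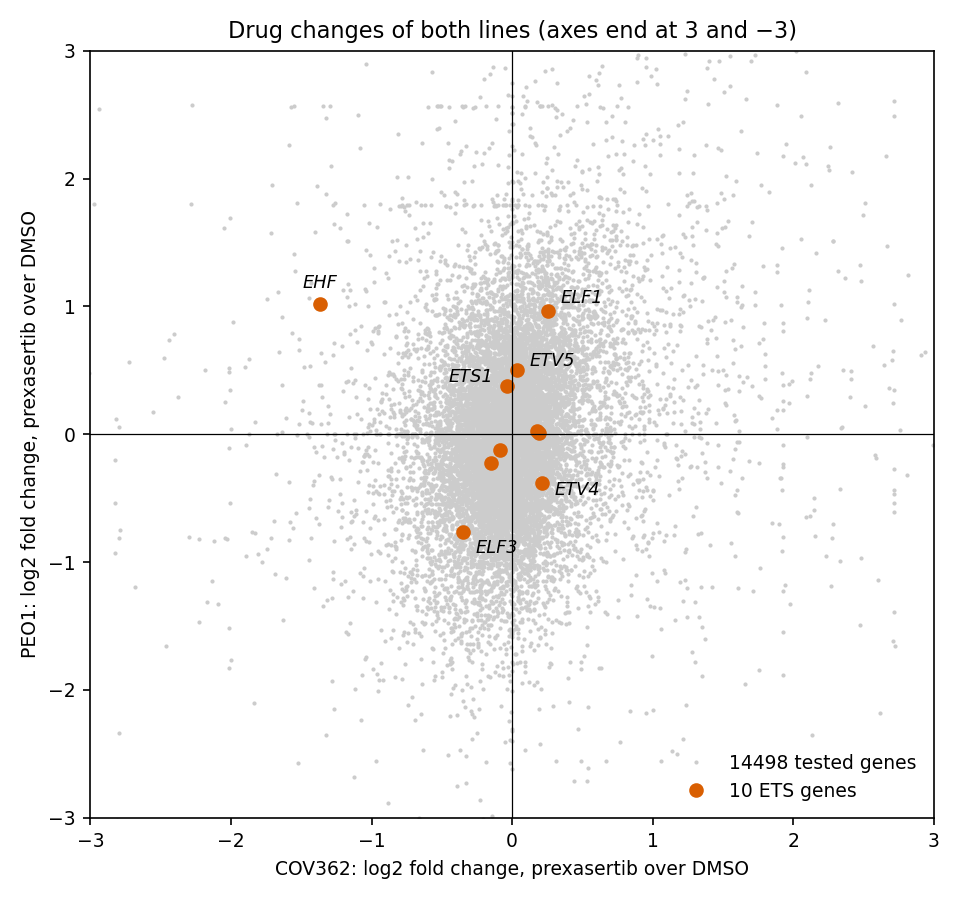
Log2 fold change of prexasertib over DMSO in COV362 (horizontal) and PEO1 (vertical) for 14498 tested genes (grey) and the 10 ETS genes (orange); 359 genes lie outside the axes, which end at 3 and -3. EHF lies far to the left of the other 9, at 1.02 in PEO1 and -1.37 in COV362, with ELF1 close to it on the PEO1 axis.

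The 18 other genes of the family included 10 that could be tested and 8 with too few counts (ELF5, SPDEF, SPI1, SPIB, SPIC, FEV, ETV2 and ETV3L). Their lists, like the lists that follow, were drawn up with earlier results of these data known. In PEO1, 3 of the 10 were called under prexasertib (30%, against 29.3% of all tested genes), with a list median of 0.15 beside 0.01 over all tested genes. GABPA, the DNA-binding subunit of GABP, which serves genes of mitochondrial and basic metabolism, rose to 22.4, 30.6 and 22.8 CPM in PEO1 prexasertib (A, B, C) against 10.97, 14.5 and 12.7 CPM in PEO1 DMSO (0.99 ± 0.24, SE; edgeR QL, adjusted p = 0.00789), a call lost without PEO1 prexasertib B (adjusted p = 0.05467). ELF2, a relative of ELF1, rose by 0.57 ± 0.16 (SE; edgeR QL, adjusted p = 0.0183), and its call was lost without any 1 of the PEO1 libraries other than DMSO B (adjusted p 0.05591 to 0.1369). ERG, known from endothelium and from gene fusions in prostate cancer, fell to 1.76, 5.22 and 3.62 CPM in PEO1 prexasertib against 10.2, 8.69 and 6.98 CPM in PEO1 DMSO (-1.28 ± 0.29, SE; edgeR QL, adjusted p = 0.00514).

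In COV362, 0 of these 10 were called under prexasertib (against 0.828% of all tested genes), with a list median of -0.18. An unadjusted p under 0.05 was reached by 1 higher and 2 lower genes (edgeR QL). Among all tested genes other than EHF it was reached by 917 higher and 911 lower of 14497. ERG was lower, at 21.5, 18.8 and 17.0 CPM in COV362 prexasertib (A, B, C) against 36.1, 31.9 and 30.2 CPM in COV362 DMSO. The summed level of the endothelial marker list was lower beside ERG in both lines. It was 1.32 to 3.62 CPM in PEO1 prexasertib and 6.43 to 7.38 CPM in PEO1 DMSO. In COV362 it was 46.5 to 51.0 CPM with prexasertib and 73.8 to 88.2 CPM with DMSO. CDH5 made up most of that sum (6.56 CPM in PEO1 DMSO and 73.9 CPM in COV362 DMSO), while PECAM1 and VWF averaged 0.0981 and 0.277 CPM in PEO1 DMSO and 2.30 and 3.06 CPM in COV362 DMSO. In PEO1 prexasertib CDH5 alone was at 1.53, 0.989 and 2.23 CPM (A, B, C), below the highest sum of 3.62 CPM there. PECAM1 and VWF thus made up part of that sum, and a fall of either beside ERG is not shown. The part of these endothelial markers in the ERG values was not tested.

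Under vehicle, FLI1 parted the lines most sharply among the 20 tested ETS genes. This neighbour of ETS1 on chromosome 11 (hg38, chr11:128686535-128813267, plus strand, beside ETS1 at chr11:128458761-128587558, minus strand) had 4 counts in all 3 PEO1 DMSO libraries and 1942 in COV362 DMSO, or mean levels of 0.0724 CPM in PEO1 DMSO and 46.3 CPM in COV362 DMSO. Lower in PEO1 DMSO were also ETV1, the remaining PEA3 member (-2.92 ± 0.33, SE), ERG (-1.92 ± 0.28, SE) and GABPA (-1.23 ± 0.24, SE), all called by edgeR QL. ETV7 was called higher on 35 counts in PEO1 DMSO and 4 in COV362 DMSO.

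Genes downstream of ERK signalling and of CIC, the repressor of ETV4 and ETV5, were listed as 16. In PEO1, 9 rose and 1, CCND1, fell under prexasertib (62.5% called, against 29.3% of all tested genes, 14.7% higher and 14.6% lower), with a list median of 0.57 beside 0.01 over all tested genes. EGR1, an immediate early factor whose promoter is bound by SRF and ETS partners, rose to 63.5, 49.3 and 61.2 CPM in PEO1 prexasertib (A, B, C) against 9.92, 6.79 and 7.97 CPM in PEO1 DMSO (2.82 ± 0.28, SE; edgeR QL, adjusted p = 1.48e-05). DUSP6, the ERK phosphatase, rose to 51.4, 38.3 and 34.3 CPM in PEO1 prexasertib against 17.8, 12.9 and 16.7 CPM in PEO1 DMSO (1.39 ± 0.20, SE; edgeR QL, adjusted p = 0.000279). SPRY4, a feedback inhibitor of receptor signalling, rose by 1.10 ± 0.13 (SE; adjusted p = 7.87e-05, edgeR QL).

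In COV362, 1 of the 16 was called, EGR1, which was higher, and the list median was 0.21. That was 6.25%, against 0.828% of all tested genes called and 0.607% called higher. These shares are from the fit without the replicate block. With the block 1977 genes were called in COV362 in place of 120, and the list was not counted. EGR1 was at 26.1, 25.05 and 25.7 CPM in COV362 prexasertib (A, B, C), against 0.363, 2.03 and 2.15 CPM in COV362 DMSO (3.94 ± 0.32, SE; edgeR QL, adjusted p = 6.16e-05). EGR1 was thus called in both lines. The interaction test called 3 of the 16 (18.8%, against 6.1% of all tested genes), all with the higher change in PEO1 (3.14% of all genes). They were DUSP6 (1.05 ± 0.28, SE), SPRY1 (1.94 ± 0.41, SE) and SPRY4 (1.03 ± 0.19, SE). SPRY1 was low in PEO1, at 0.457, 0.760 and 0.825 CPM with DMSO (A, B, C) and 1.17, 1.15 and 1.93 CPM with prexasertib. In COV362 SPRY1 was lower with prexasertib, at 10.5, 8.64 and 9.24 CPM against 21.8, 17.9 and 13.8 CPM with DMSO.

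ETS partners and regulators were listed as 21 genes. In PEO1, 4 rose and 3 fell under prexasertib (33.3% called, against 29.3% of all tested genes), with a median of 0.28. In COV362 0 were called (against 0.828% of all tested genes), with a median of -0.08. An unadjusted p under 0.05 was reached there by 2 lower genes (edgeR QL). Among all tested genes other than EHF it was reached in COV362 by 917 higher and 911 lower of 14497. JUN, the AP-1 subunit that pairs with ETS factors on composite sites, rose to 168, 107 and 130.4 CPM in PEO1 prexasertib (A, B, C) against 68.5, 54.3 and 51.5 CPM in PEO1 DMSO (1.22 ± 0.21, SE; edgeR QL, adjusted p = 0.00076). GABPB2, a partner subunit of GABPA, rose by 0.91 ± 0.22 (SE; adjusted p = 0.00779, edgeR QL), a call lost without PEO1 DMSO C or PEO1 prexasertib B. MAPK3, which encodes ERK1, fell by 0.94 on the log2 scale (SE 0.19; adjusted p = 0.00255, edgeR QL). CIC itself fell in PEO1 as well (-0.67 ± 0.20, SE; edgeR QL, adjusted p = 0.01995), and was named after its value was seen.

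Genes described in epithelial cells as ETS targets numbered 21, of which 18 could be tested. In PEO1, 4 rose (MMP3, CCL20, PTGS2 and VEGFA) and 4 fell (KRT4, KRT8, LCN2 and PLAU), with a median of 0.11. That was 44.4% of the 18, against 29.3% of all tested genes. MMP3, a matrix protease, rose to 29.3, 27.3 and 28.2 CPM in PEO1 prexasertib (A, B, C) against 0.849, 0.814 and 0.385 CPM in PEO1 DMSO (edgeR QL, adjusted p = 5.64e-06). The chemokine CCL20 (5.12 ± 0.57, SE) and PTGS2, which encodes cyclooxygenase-2 (4.95 ± 0.39, SE), had similar log2 fold changes from low DMSO levels. CCL20 had 0, 5 and 2 counts in PEO1 DMSO (A, B, C) and reached only 5.64, 3.52 and 5.55 CPM with prexasertib. PTGS2 had 5, 24 and 34 counts in PEO1 DMSO and reached 35.4, 41.5 and 34.5 CPM with prexasertib. In COV362, 2 fell (11.1%, against 0.828% of all tested genes called and 0.221% called lower). They were the keratin KRT4 (-1.37 ± 0.28, SE, edgeR QL, adjusted p = 0.035) and the receptor TGFBR2 (-0.67 ± 0.13, SE, edgeR QL, adjusted p = 0.0314). These shares are from the fit without the replicate block. With the block 1977 genes were called in COV362 in place of 120, and the list was not counted. The KRT4 call was lost without any 1 of the COV362 libraries other than prexasertib A (edgeR QL, adjusted p up to 0.1718). The TGFBR2 call was lost without COV362 DMSO B or C or prexasertib A or C (up to 0.1629). On the COV362 libraries alone neither was called (edgeR QL, adjusted p = 0.2525 for KRT4 and 0.2869 for TGFBR2). Between the DMSO groups 14 of the 18 were called (77.8%, against 57.7% of all tested genes), 9 higher and 5 lower in PEO1 (29.1% and 28.6% of all genes). Among those higher were the adherens junction gene CDH1 (114 CPM in PEO1 DMSO and 0.346 CPM in COV362 DMSO) and the tight junction gene CLDN7 (155 CPM in PEO1 DMSO and 1.04 CPM in COV362 DMSO). COV362, the line with low EHF and ELF3, was nearly without CDH1 message, but other listed genes ran the other way. KRT4 was at 101, 66.7 and 61.0 CPM in COV362 DMSO (A, B, C) against 2.68, 3.04 and 3.02 CPM in PEO1 DMSO. TGFBR2 was at 283, 358 and 282 CPM in COV362 DMSO against 78.7, 85.5 and 76.1 CPM in PEO1 DMSO.

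Likeness to EHF was measured as the Pearson correlation of log2 CPM over the 12 libraries after subtracting the mean of each line, over 10679 genes that averaged 5 CPM or more. The libraries share their letters and the length trend, so the values are descriptions. The 5 nearest were MBNL1 (r = 0.963), MIER1 (0.956), TNC (0.955), SPECC1 (0.954) and CDKAL1 (0.953). A shared direction with EHF follows from this choice and is no result. TNC, an extracellular matrix glycoprotein, was at 11.7, 13.4 and 12.3 CPM in PEO1 prexasertib against 7.64, 7.55 and 7.04 CPM in PEO1 DMSO. In COV362 TNC stood at 706, 903 and 875 CPM with prexasertib against 1047, 1599 and 1221 CPM with DMSO, so its level was far higher in the line where EHF was low. Nearest to ELF3 were NASP (r = 0.983), PPA2 (0.945) and ABHD17C (0.941), and nearest to ETV4 were RNF187 (0.991), AK1 (0.988) and EIF4EBP1 (0.985). Among the members themselves ELF1 and ETS1 varied together (r = 0.840), and ETS1 and ETV4 (-0.921) and ELF3 and ELF1 (-0.875) in opposite senses. EHF correlated best with ETS1 (0.646) and ran against ETV4 (-0.696).

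Library totals ranged from 9390790 counts (COV362 DMSO A) to 18262805 counts (COV362 DMSO B). Markers fitted the labelled origin in part. PAX8, the lineage factor of this tumour type, averaged 97 CPM in PEO1 prexasertib, 144 CPM in PEO1 DMSO, 82.9 CPM in COV362 prexasertib and 103 CPM in COV362 DMSO. CDH1 was near 0 in COV362. EPCAM was at 13.2, 11.4 and 11.1 CPM in COV362 DMSO (A, B, C), against 431, 446 and 379 CPM in PEO1 DMSO. Of the 14 epithelial markers, 2 averaged under 1 CPM in PEO1 prexasertib, 1 in PEO1 DMSO and 2 in each COV362 group. The 1 in PEO1 DMSO had 0 counts. The 5 leukocyte markers summed to 32.42 to 39.17 CPM in PEO1 prexasertib, 37.23 to 42.56 CPM in PEO1 DMSO, 50.12 to 60.16 CPM in COV362 prexasertib and 31.33 to 42.3 CPM in COV362 DMSO. CD68 made up most of that sum, with means of 34.3, 35.6, 53.3 and 36.7 CPM in the same order, and CD14 averaged 4.27 CPM in PEO1 DMSO and at most 1.37 CPM in the other groups. PTPRC and CD3E were at or below 0.0783 CPM in every group mean. The part of these markers in the results was not tested.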

How the data were processed

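Libraries were prepared from column-extracted RNA by an unstranded poly(A) kit (TruSeq RNA Library Prep, version 2), per the labels' protocols. The submitters' processing notes name STAR, featureCounts 1.4.6, Subread and hg38, with no roles. What the authors deposited is a table of unnormalized read counts, 1 row per gene, with exon coordinates and lengths per the file headers. Without strand, reads of overlapping antisense genes cannot be told apart, and reads shared by paralogs may be split. Genes were kept with filterByExpr in edgeR 4.0.16 (R 4.3.3; minimum count 10, minimum total 15), scaled by the trimmed mean of M-values and fitted as 4 group means on 12 libraries with 8 residual degrees of freedom, by quasi-likelihood. DESeq2 1.42.0, limma 3.58.1 (voom), a replicate block, a correction for exon length, other filters and scalings and left-out libraries were alternatives. The code was tested on simulated data.

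The members and lists were chosen with earlier results of these data known. Named were all 10 members, up to 3 called genes per list and drug comparison with the largest change and a mean of at least 1 CPM, and the genes most like EHF (5), ELF3 and ETV4 (3 each); other list genes were named after their values were seen. The letters were taken to pair libraries where every same-letter pair deviated from its group mean together at r over 0.1. In COV362 the 3 values were 0.410, 0.423 and 0.133, so by this cutoff the letters were taken to pair those libraries. Treated C of COV362 correlated slightly better with DMSO B (0.138) than with DMSO C. In PEO1 the values were 0.302, 0.171 and 0.0813, so pairing was neither shown nor excluded there.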

Additional observations from a re-analysis of the deposited data

Results flagged for a closer look

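The EHF response to prexasertib differed between the lines: the PEO1 change minus the COV362 change was 2.384 ± 0.294 (SE, log2), from 3 libraries in each group. EHF was flagged because its change ran in opposite directions in all libraries, higher in 3 of 3 treated PEO1 libraries and lower in 3 of 3 treated COV362 libraries than in the DMSO libraries of the same line. It was chosen for this difference, so no test is given.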

How the results depend on the processing

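EHF kept its direction in each drug comparison under every alternative run (0.84 to 1.03 in PEO1, -1.60 to -1.11 in COV362), as did the ELF3 fall in PEO1 with its call. Numbers of called genes moved more. In COV362, 120 genes were called (73.3% higher), against 533 with DESeq2 (56.3%), 247 with length correction (58.7%), 330 without the A libraries (55.8%), 10 on the COV362 libraries alone, and 27 to 128 when 1 library was left out. With the replicate block the count was 1977 (42.1% higher), and 1956 with block and length correction (41.5%), which also called 1 member, ELF3; leaving out 1 library called 0 to 0 members. In PEO1, where the letters were not shown to pair libraries, the block called 7446 genes in place of 4249 and 7641 with length correction, with 5 of the 9 other members in each; leaving out 1 library left 3011 to 3361 genes and 1 to 2 members. Treated B of PEO1 correlated best with DMSO C (0.222) and treated C of COV362 with DMSO B (0.138), the other treated libraries with their own letter. For the difference between the drug changes, 885 genes (51.4% higher) became 1966 with DESeq2, 1650 with length correction (42.0%), 4906 with the block, 4832 with both and 328 to 1756 with 1 library left out, and 37.4% were higher with no filter; the block called 4 members (ELF1, ETS1, ETV4 and ETV5), block and length correction 3. Between the DMSO groups the block was of another kind, a letter effect shared by both lines. Pairing of letters across the lines was not checked. This shared block called 9910 genes in place of 8361, and 10 members in place of 6. Leaving out 1 library called 7513 to 8129 genes and 5 to 6 members. The cause of these shifts was not tested.

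Signs reversed in uncalled values alone. In COV362 ETS1 turned to 0.024 with length correction, 0.020 with block and length correction and 0.059 without the A libraries. With 1 library left out its range was -0.24 to 0.12, and ELF1 had -0.034 to 0.52, ETV4 -0.062 to 0.42, ETV5 -0.0097 to 0.097 and ERF -0.35 to 0.066. In PEO1 ELF4 turned to -0.026 with RLE scaling, -0.050 with no filter, -0.026 with DESeq2, -0.054 with length correction, -0.052 with both and -0.074 to -0.011 with 1 library left out. ETS2 turned to -0.010, -0.034, -0.0100, -0.033 and -0.027 in the same order, and -0.078 to 0.038 with 1 left out. The ERF interaction was 0.10 without the A libraries and -0.29 to 0.12 with 1 left out. The scalings and filters shifted the median of all genes by -0.0638 to 0.00987 (log2). EHF and ELF3 in COV362 rest on 153 to 377 counts per group, which limits their precision.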

Other observations

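CBFB, the shared partner subunit of RUNX factors that often bind beside ETS1, had a mean of 2.03 CPM in PEO1 prexasertib and 2.07 CPM in PEO1 DMSO, against 42.9 CPM in COV362 prexasertib and 54.4 CPM in COV362 DMSO (PEO1 DMSO against COV362 DMSO, edgeR QL, adjusted p = 2.059e-09). RUNX3 was at 0 counts in all 3 PEO1 DMSO libraries and 583 counts in COV362 DMSO. RUNX1, its paralog, averaged 84.3 CPM in PEO1 prexasertib, 86.4 CPM in PEO1 DMSO, 64.2 CPM in COV362 prexasertib and 70.4 CPM in COV362 DMSO. These genes were named after their values were seen. PEO1 thus held the higher ETS1 level with little CBFB message, a pair of values given with no explanation.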
